A study of Mus musculus with 7 samples.

Results

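Interferon-stimulated genes are the genes that cells switch on when interferon binds its receptor. The 37 described here are a list of symbols from sensing, signalling, antiviral and antigen-processing roles. The list was drawn up with earlier results of these data known, so the direction of its members is not independent evidence. All 37 were found among the 19257 genes of the table of normalized counts. All 37 also had a mean of at least 10 normalized counts and so belonged to the 14782 genes tested, with 12 to 21984 reads per gene and library.

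The counts came from bulk RNA-Seq of endpoint glioma tissue in mouse brain, 1 library per brain, from 3 brains with 3xCR tumors and 4 brains with GPC6 tumors. Tumors of both groups were induced in CD-1 and C57BL/6 embryos by in utero electroporation of Cas9 with guides to tumor suppressor genes that include Trp53 and Nf1, together with a piggyBac transposon that labels the electroporated cells with GFP. The only named difference was that the transposon of the GPC6 group also overexpressed GPC6, a glypican that is anchored to the cell surface and carries heparan sulfate. Thus the 3xCR tumors, whose genotype the labels give as control, were not tumor-free, and all tumors grew in immunocompetent hosts. Tissue was dissected by its fluorescence and contained host cells as well as tumor cells. The animals were male and female, but the sex and the age at collection of the brain behind a given library are not given in the sources used here.

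Interferons reach a cell from outside or are made by the cell itself after its sensors meet foreign or misplaced nucleic acid. Type I interferon acts through a receptor whose kinases phosphorylate transcription factors such as Stat2, which join Irf9 and bind a DNA element called ISRE. Type II interferon, mainly from T and NK cells, acts through a separate receptor and a DNA element called GAS. In brain tumors interferon-stimulated genes are expressed by microglia, macrophages, endothelial cells and the tumor cells themselves.

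Of the members' promoter sequences 4 are printed here, those of an antiviral effector, a protein modifier and 2 immunity-related GTPases. All 4 hold ISRE matches as defined below, so they do not stand for the members without such a match. RefSeq promoter windows from 250 bases before to 50 bases after the start site were found for 26 of the 37 members by symbol (assembly GRCm38.p6, the assembly that mm10 denotes). Parp9, Mx1, Zbp1, Ifi27, Dhx58, Usp18, Oas2, Iigp1, Mx2, Rtp4 and Parp14 had no window. Each sequence runs 5′ to 3′ on the strand of the gene. Capitals mark the letters GAAANNGAAA or their reverse complement TTTCNNTTTC, the core of the ISRE, and the palindromic letters TTCNNNGAA, the core of the GAS. The windows lie at chr19:34583279-34583578 on the plus strand for Ifit3, at chr4:156200769-156201068 on the minus strand for Isg15, at chr11:48871371-48871670 on the minus strand for Irgm1 and at chr11:58199306-58199605 on the plus strand for Igtp.
Ifit3: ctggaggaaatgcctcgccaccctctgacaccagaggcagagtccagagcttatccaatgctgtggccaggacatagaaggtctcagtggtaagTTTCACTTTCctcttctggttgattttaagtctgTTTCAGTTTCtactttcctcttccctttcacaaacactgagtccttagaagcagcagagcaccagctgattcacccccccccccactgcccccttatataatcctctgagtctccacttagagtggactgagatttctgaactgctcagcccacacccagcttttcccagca
Isg15: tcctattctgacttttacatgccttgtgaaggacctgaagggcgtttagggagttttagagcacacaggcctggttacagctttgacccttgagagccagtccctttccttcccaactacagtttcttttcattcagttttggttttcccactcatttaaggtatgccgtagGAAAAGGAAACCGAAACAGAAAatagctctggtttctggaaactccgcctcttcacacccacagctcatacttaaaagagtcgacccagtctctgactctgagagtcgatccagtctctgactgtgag
Irgm1: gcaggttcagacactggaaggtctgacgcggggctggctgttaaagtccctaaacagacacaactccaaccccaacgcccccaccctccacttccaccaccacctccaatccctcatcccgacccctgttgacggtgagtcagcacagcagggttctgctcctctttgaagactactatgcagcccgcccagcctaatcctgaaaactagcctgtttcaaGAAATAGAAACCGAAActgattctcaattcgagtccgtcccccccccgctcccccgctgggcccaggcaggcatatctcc
Igtp: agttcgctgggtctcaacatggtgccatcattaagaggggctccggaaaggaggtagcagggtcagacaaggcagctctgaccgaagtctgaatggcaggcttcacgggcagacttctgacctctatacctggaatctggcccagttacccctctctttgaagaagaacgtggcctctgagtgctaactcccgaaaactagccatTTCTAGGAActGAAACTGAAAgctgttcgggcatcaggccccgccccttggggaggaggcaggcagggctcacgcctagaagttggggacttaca
The window of Ifit3 held 2 ISRE matches, and that of Isg15 held 3 overlapping ones. In Irgm1 the 2 matches overlapped as well, whereas Igtp had 1 ISRE match just behind 1 GAS match.

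A single ISRE match sat at different distances from the start site in other members. The following 30-base stretches each hold 1 match in capitals with 10 bases on either side, on the strand of the gene, and are shown to let the spacer and flanks be compared. The match lies at chr12:26456563-26456572 for Rsad2, chr17:78882545-78882554 for Eif2ak2, chr3:142620604-142620613 for Gbp2, chr4:40239814-40239823 for Ddx58 and chr10:128270276-128270285 for Stat2.
Rsad2: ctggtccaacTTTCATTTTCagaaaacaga
Eif2ak2: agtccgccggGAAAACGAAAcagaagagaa
Gbp2: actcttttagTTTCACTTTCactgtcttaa
Ddx58: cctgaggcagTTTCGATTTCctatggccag
Stat2: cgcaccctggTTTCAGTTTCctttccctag
Counted from the start site, the match began 120 bases upstream in Rsad2, 59 bases upstream in Gbp2 and 222 bases upstream in Stat2. In Eif2ak2 and Ddx58 it lay within the transcript, beginning at base 19 and base 3.

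In all, 15 of the 26 members with a window (57.7%) held the ISRE letters on either strand, against 3.99% of the 27025 genes of the mouse table with a window of this length (3.44% of its 32851 windows). These were Bst2, Ddx58, Eif2ak2, Gbp2, Gbp3, Ifih1, Ifit1, Ifit3, Igtp, Irgm1, Isg15, Oas1a, Oas3, Rsad2 and Stat2. The GAS letters occurred in 7 members (26.9%), against 9.55% of genes and 8.30% of windows, namely Bst2, Eif2ak2, Ifi35, Ifit2, Igtp, Oas1a and Psmb8. Both sets of letters were found in 4 members, overlapping in Bst2, and neither in 8. A match is a description of letters and not of a bound site.

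**Figure D1:**
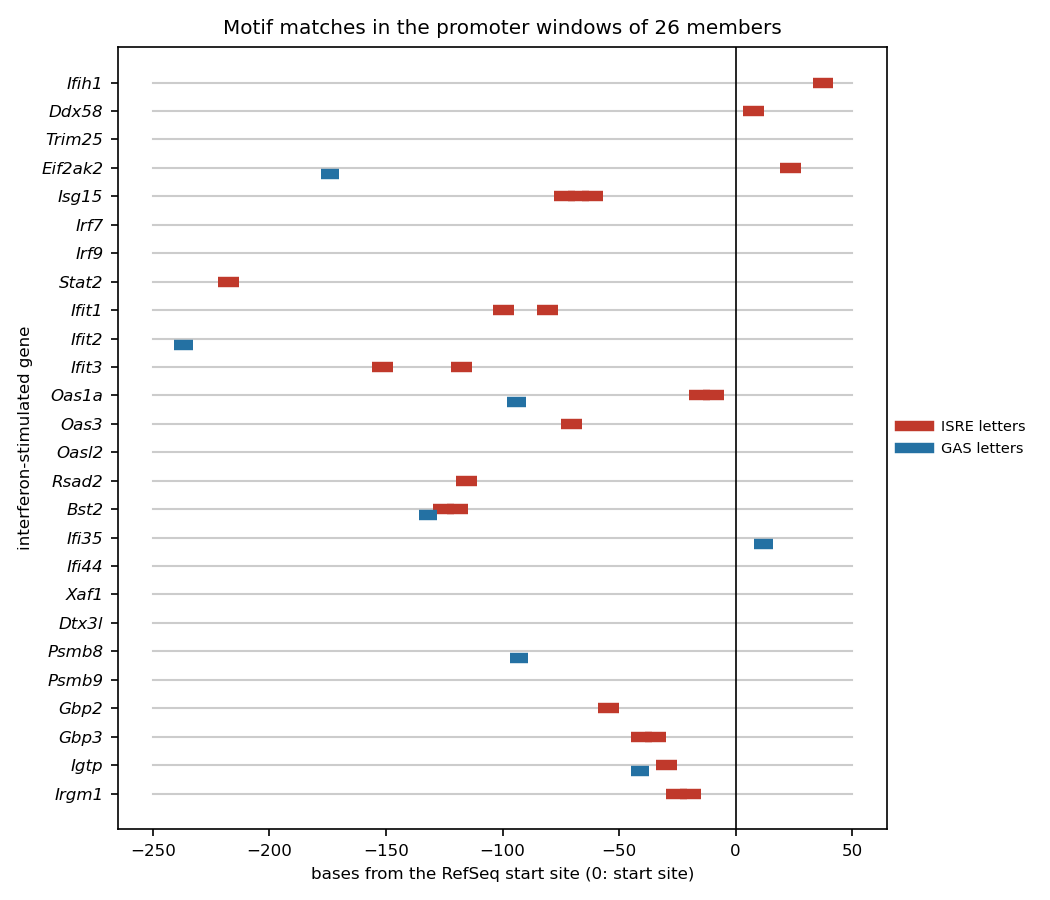
Positions of ISRE letters (red) and GAS letters (blue) in the promoter windows of 26 members, with the distance from the RefSeq start site in bases on the x axis and 1 gene per row. ISRE letters appear in 15 rows and GAS letters in 7.

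The depth of the libraries overlapped between the groups. The 3xCR libraries, replicates 2, 3 and 4, held 18879762, 11339136 and 8322446 reads on genes, and the GPC6 libraries, replicates 1 to 4, held 7197692, 10566182, 11343102 and 9885095 (two-sided exact permutation test, p = 0.457, where the smallest p of this design is 0.0571). Gpc6 itself had 217, 226 and 126 normalized counts in 3xCR and 675, 263, 3434 and 5084 in GPC6 tumors, so that the groups did not overlap (exact permutation test, p = 0.0571) but GPC6 replicate 2 lay close to the 3xCR level. GPC6 replicate 1 stood apart in its makeup, with 55243 summed normalized counts of 8 neuron markers against 5127 to 26468 in the other libraries, and 502 of 7 proliferation markers against 3980 to 11222. Counts and medians over the members are therefore also given without these libraries, as are the members' log2 fold changes below that move by over 1.5 times without GPC6 replicate 1.

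All 37 interferon-stimulated genes had a lower mean in GPC6 than in 3xCR tumors. The log2 fold changes, GPC6 minus 3xCR, ran from -1.72 for Irf7 to -0.36 for Ifi27 with a median of -0.95, while the median over all genes tested was -0.019 and 51.7% of genes were lower. A value below -0.5 was reached by 36 members against 16.9% of all genes, and 31 members lay in the lowest 10% of fold changes. As the tissue was bulk, fewer cells that express these genes and less RNA per cell cannot be told apart.

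No single member passed the test across genes. With limma on log2(normalized count + 1) and Benjamini-Hochberg adjustment over the 14782 genes, 0 members and 0.0% of all genes had an adjusted p under 0.05, and the members' adjusted p lay between 0.730 and 0.770. At an unadjusted p under 0.05, 11 members (29.7%) were lower in GPC6 against 1.92% of all genes, and 0 were higher against 2.74%. These 11 were Ifit1, Ifit2, Ifit3, Isg15, Irf7, Mx2, Rsad2, Usp18, Rtp4, Eif2ak2 and Iigp1. On the recovered reads edgeR gave 10 lower members against 2.95% of genes lower at an unadjusted p under 0.05, and DESeq2 gave 14 against 3.66%. With Benjamini-Hochberg adjustment neither tool passed a member, with a smallest adjusted p of 0.603 by edgeR and 0.246 by DESeq2, and over all genes they passed 0.0% and 0.0676%. The 2 groups did not overlap in 9 members (24.3%), against 3.52% of all genes, and these were Ifit2, Ifit3, Irf9, Mx2, Rsad2, Rtp4, Eif2ak2, Irgm1 and Iigp1.

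The number of members below the unadjusted threshold depended on which tumors entered the fit, while the lower mean did not depend on any single one. The mean was lower in GPC6 for all 37 members whichever library was left out. The shares of genes in brackets count genes lower in GPC6. Without 3xCR replicate 4 only Ifit3 had an unadjusted p under 0.05 (1 member against 0.448% of genes), and without 3xCR replicate 3 there were 6 (1.43%). Without 3xCR replicate 2 there were 16 (3.41%). Leaving out GPC6 replicate 1 gave 10 members (1.78%) with a median of -0.66, and leaving out GPC6 replicate 2 gave 7 (3.19%) with a median of -0.88. Without GPC6 replicate 3 the number was 19 (1.63%), and without GPC6 replicate 4 it was 13 (2.68%). When GPC6 replicates 1 and 2 were both left out, 35 of 37 members were still lower, with a median of -0.39, but only Ifit3 and Rtp4 had an unadjusted p under 0.05 (2.68% of genes). With a weight per library, 5105 of the 14782 genes had an unadjusted p under 0.05 in either direction, and 1962 passed the adjustment. Of the members 14 were lower at an unadjusted p under 0.05, against 16.1% of genes that were lower. Against 3.92% of genes that were lower, 3 members passed the adjustment, all of them lower. These were Ifit3 (log2 fold change -1.08, limma with Benjamini-Hochberg adjusted p = 0.0376), Rsad2 (-0.62, adjusted p = 0.0373) and Parp9 (-0.75, adjusted p = 0.0381).

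**Figure D2:**
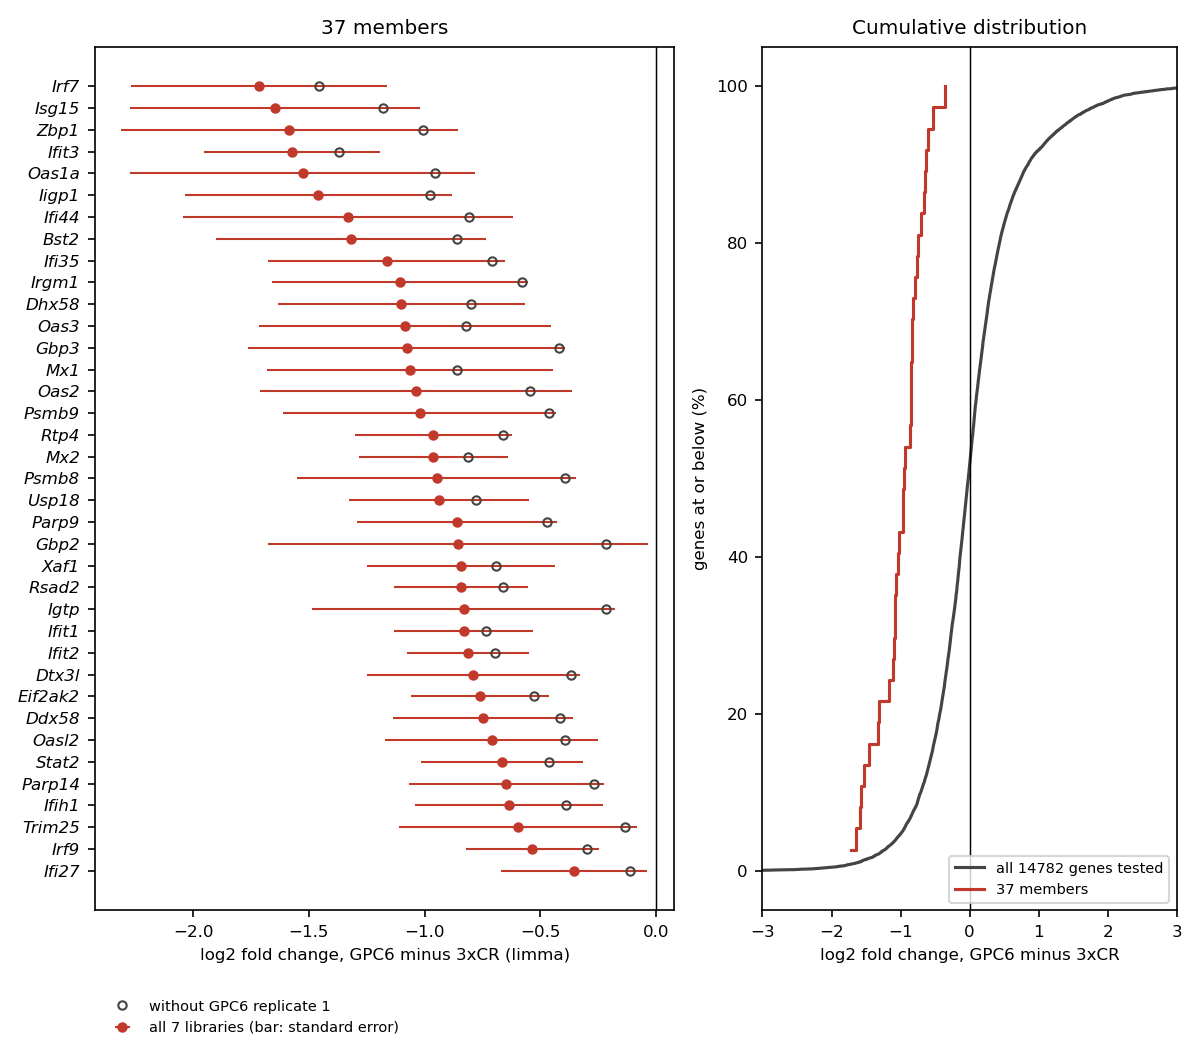
Left, log2 fold change of each member (GPC6 minus 3xCR, limma) with its standard error over all 7 libraries (filled) and without GPC6 replicate 1 (open). Right, the percentage of genes at or below each log2 fold change for the 37 members and for all 14782 genes tested. All 37 filled and open points lie below 0.

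The members varied together from tumor to tumor, and the tumors of a group differed widely. Across the 7 libraries Pearson's r of a member with the mean over all members, to which it contributes itself, ran from 0.654 for Ifi27 to 0.995 for Bst2, with a median of 0.929. The member level of a library, taken as the mean over the 37 genes of log2(normalized count + 1) after centring each gene on its average of all 7 libraries, was 0.14, 0.58 and 1.00 for replicates 2, 3 and 4 of the 3xCR tumors, and -1.52, -0.55, 0.26 and 0.088 in GPC6 replicates 1 to 4. Thus GPC6 replicates 1 and 2 lay below every 3xCR tumor, whereas GPC6 replicate 3 lay above 3xCR replicate 2. On the linear scale the members took 0.649%, 0.907% and 0.943% of the reads on genes in 3xCR and 0.154%, 0.435%, 0.708% and 0.736% in GPC6 tumors. GPC6 replicate 1 was the lowest library for 35 members, against 31.3% of all genes. 3xCR replicate 4 was the highest for 28, against 23.9% of all genes. GPC6 replicate 1 was below every 3xCR library in all 37 members and GPC6 replicate 2 in 36, while GPC6 replicate 3 was so in 15 and GPC6 replicate 4 in 17. Over all genes tested these shares were 39.6%, 26.4%, 29.3% and 27.2% for GPC6 replicates 1 to 4.

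**Figure D3:**
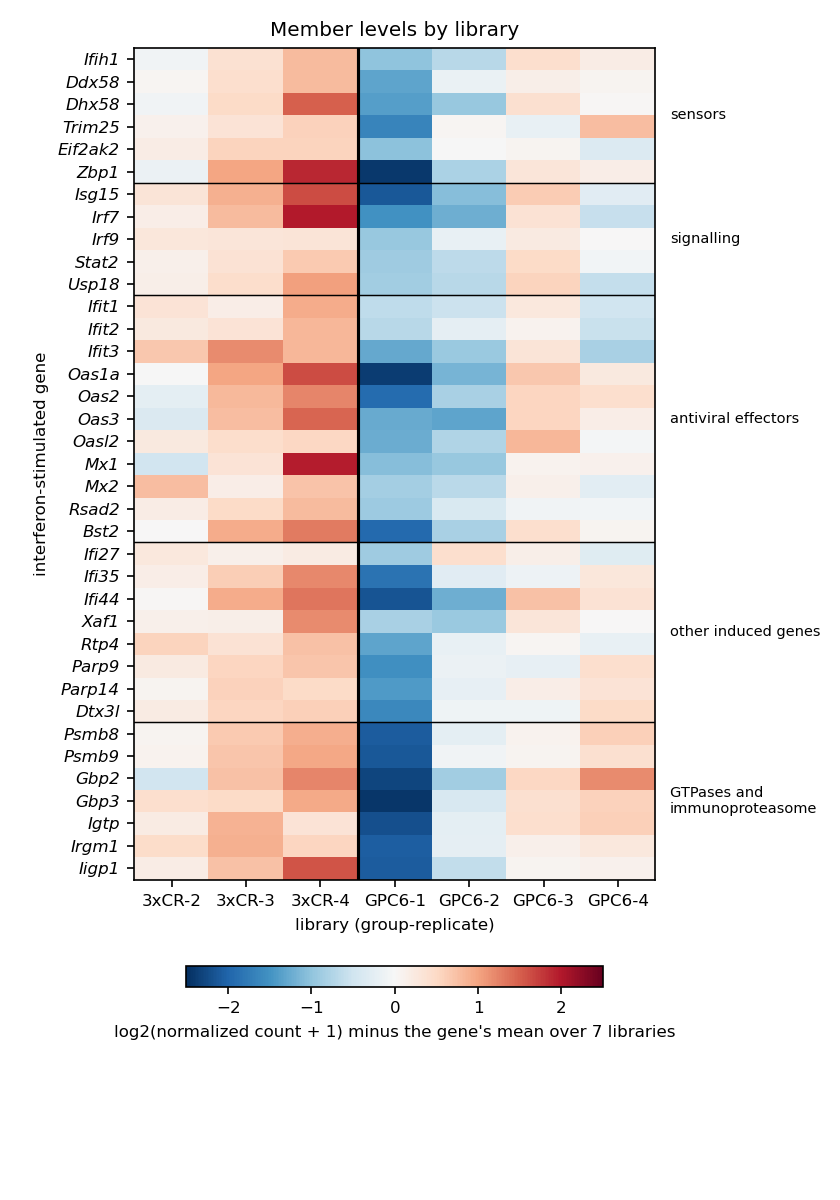
Level of each member (rows) in each library (columns), as log2(normalized count + 1) centred on the average of the gene. GPC6 replicate 1 holds the lowest value in 35 of 37 rows and 3xCR replicate 4 the highest in 28.

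Among the sensors of foreign nucleic acid, all 6 had a lower mean in GPC6 tumors, with a median log2 fold change of -0.75. Zbp1, which binds left-handed nucleic acid and can start cell death, had 741, 1615 and 3025 normalized counts in 3xCR and 153, 476, 1011 and 925 in GPC6 tumors. It had the widest spread of the sensors, its groups overlapped, and the log2 fold change was -1.58 (SE 0.73, unadjusted p = 0.0618), or -1.01 without GPC6 replicate 1. Eif2ak2, the kinase PKR that halts translation on binding double-stranded RNA, had 688, 899 and 898 normalized counts in 3xCR and 298, 608, 633 and 480 in GPC6 tumors. Here every GPC6 tumor was below every 3xCR tumor, with a log2 fold change of -0.76 (SE 0.30, unadjusted p = 0.0354).

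The RIG-I-like receptors, which detect viral RNA in the cytoplasm, overlapped between groups. Ddx58, which encodes RIG-I, had a mean of 702 ± 180 normalized counts in 3xCR (SD, n = 3) and 438 ± 163 in GPC6 (SD, n = 4). Its relative Ifih1, which encodes MDA5, had 492 ± 146 and 333 ± 150. Dhx58, which encodes the regulator LGP2, had 403 ± 231 and 190 ± 103. In each of these the upper GPC6 tumors reached into the 3xCR range, and unadjusted p lay between 0.0747 and 0.156. Trim25, a ubiquitin ligase that acts in RIG-I signalling, had its highest value of 1828 normalized counts in GPC6 replicate 4 and its lowest of 342 in GPC6 replicate 1, so that the 3xCR range of 1153 to 1604 lay inside that of the GPC6 tumors.

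The 5 members of the signalling and feedback arm included the 2 largest fold changes of all members. Irf7, the transcription factor that amplifies type I interferon production, had 1357, 2082 and 4771 normalized counts in 3xCR and 420, 518, 1555 and 811 in GPC6 tumors. 3xCR replicate 4 was high and only GPC6 replicate 3 reached the 3xCR range, and the log2 fold change was -1.72 (SE 0.55, unadjusted p = 0.0151). Isg15, a ubiquitin-like protein that is attached to other proteins, had 1309, 1941 and 3240 normalized counts in 3xCR and 243, 505, 1633 and 860 in GPC6 tumors. The order of the 7 tumors was that seen for Irf7, with a log2 fold change of -1.65 (SE 0.63, unadjusted p = 0.0306). Usp18, which removes Isg15 from its targets and dampens signalling at the type I receptor, had 720, 886 and 1320 normalized counts in 3xCR and 354, 402, 956 and 432 in GPC6 tumors. Again GPC6 replicate 3 alone overlapped with the 3xCR tumors (log2 fold change -0.94, SE 0.39, unadjusted p = 0.0422).

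Irf9 and Stat2, parts of the complex that binds the ISRE, differed less. Irf9 had 1082, 1100 and 1116 normalized counts in 3xCR, the tightest group of any member, and 462, 778, 1036 and 890 in GPC6 tumors. The groups did not overlap, but the highest GPC6 tumor came close to the lowest 3xCR tumor, and the log2 fold change was -0.53 (SE 0.29, unadjusted p = 0.101), or -0.30 without GPC6 replicate 1. Irf9 shares 123 exonic bases with Rnf31 on the same strand, so that some reads may belong to either. Stat2 had a mean of 1284 ± 237 normalized counts in 3xCR (SD, n = 3) and 858 ± 379 in GPC6 (SD, n = 4), with overlapping groups.

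Of the 11 antiviral effectors, 5 were lower at an unadjusted p under 0.05, against 1.92% of all genes, and 4 did not overlap between groups, against 3.52%. Ifit3, one of the tetratricopeptide proteins that bind foreign RNA, had 1831, 2605 and 2029 normalized counts in 3xCR and 468, 597, 1429 and 654 in GPC6 tumors. Its means were 2155 ± 402 (SD, n = 3) and 787 ± 435 (SD, n = 4), the groups did not overlap, and at -1.57 (SE 0.38) it had the smallest unadjusted p of all members, 0.00333 (limma, Benjamini-Hochberg adjusted p = 0.730). Ifit2, its neighbour on chromosome 19, had 898, 963 and 1347 normalized counts in 3xCR and 470, 654, 812 and 514 in GPC6 tumors. It too separated the groups (log2 fold change -0.81, SE 0.26, unadjusted p = 0.0152). Ifit1, which recognizes RNA caps that lack methylation, had 762, 675 and 1156 normalized counts in 3xCR and 388, 414, 723 and 429 in GPC6 tumors. In this gene GPC6 replicate 3 lay between 3xCR replicates 3 and 2 while the other GPC6 tumors were lower (log2 fold change -0.83, SE 0.30, unadjusted p = 0.0247). Ifit3b, a near copy of Ifit3 outside the list whose reads may be split with it, had 1041, 1290 and 2138 normalized counts in 3xCR and 598, 661, 831 and 371 in GPC6 tumors. In this copy, too, the groups did not overlap.

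Rsad2, or viperin, an enzyme that makes a chain-terminating nucleotide, had 289, 351 and 435 normalized counts in 3xCR and 134, 195, 237 and 240 in GPC6 tumors. All GPC6 tumors were below all 3xCR tumors (log2 fold change -0.84, SE 0.29, unadjusted p = 0.0196). The groups also separated for Mx2, a dynamin-like GTPase that GENCODE lists as a polymorphic pseudogene in the reference strain, with 306, 203 and 294 normalized counts in 3xCR and 98.9, 113, 197 and 150 in GPC6 tumors. The margin was small in Mx2, since GPC6 replicate 3 came within a few counts of 3xCR replicate 3 (log2 fold change -0.96, SE 0.32, unadjusted p = 0.0174). Its paralog Mx1 had 63.0, 112 and 347 normalized counts in 3xCR and 41.7, 45.4, 93.1 and 94.7 in GPC6 tumors. In Mx1 the difference of means came mostly from 3xCR replicate 4, and the unadjusted p was 0.125.

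The oligoadenylate synthetases, which make the signal that activates RNase L, had wide and overlapping groups. Oas1a had 582, 1168 and 1827 normalized counts in 3xCR and 113, 263, 933 and 693 in GPC6 tumors (log2 fold change -1.53, SE 0.75, unadjusted p = 0.0756, and -0.95 without GPC6 replicate 1). Oas2 and Oas3 were the least abundant members per length, with 18.5 to 171 and 32.6 to 227 normalized counts per library. Oasl2, a family member with ubiquitin-like domains, had its highest value, 3176 normalized counts, in GPC6 replicate 3. Over the 4 genes the unadjusted p lay between 0.0756 and 0.163, and 0 of 4 separated the groups. Bst2, or tetherin, which holds budding virus at the cell surface, had 2444, 4620 and 5974 normalized counts in 3xCR and 629, 1370, 3245 and 2542 in GPC6 tumors. Here GPC6 replicates 3 and 4 overlapped with 3xCR replicate 2 (log2 fold change -1.32, SE 0.58, unadjusted p = 0.0548, and -0.86 without GPC6 replicate 1).

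**Figure D4:**
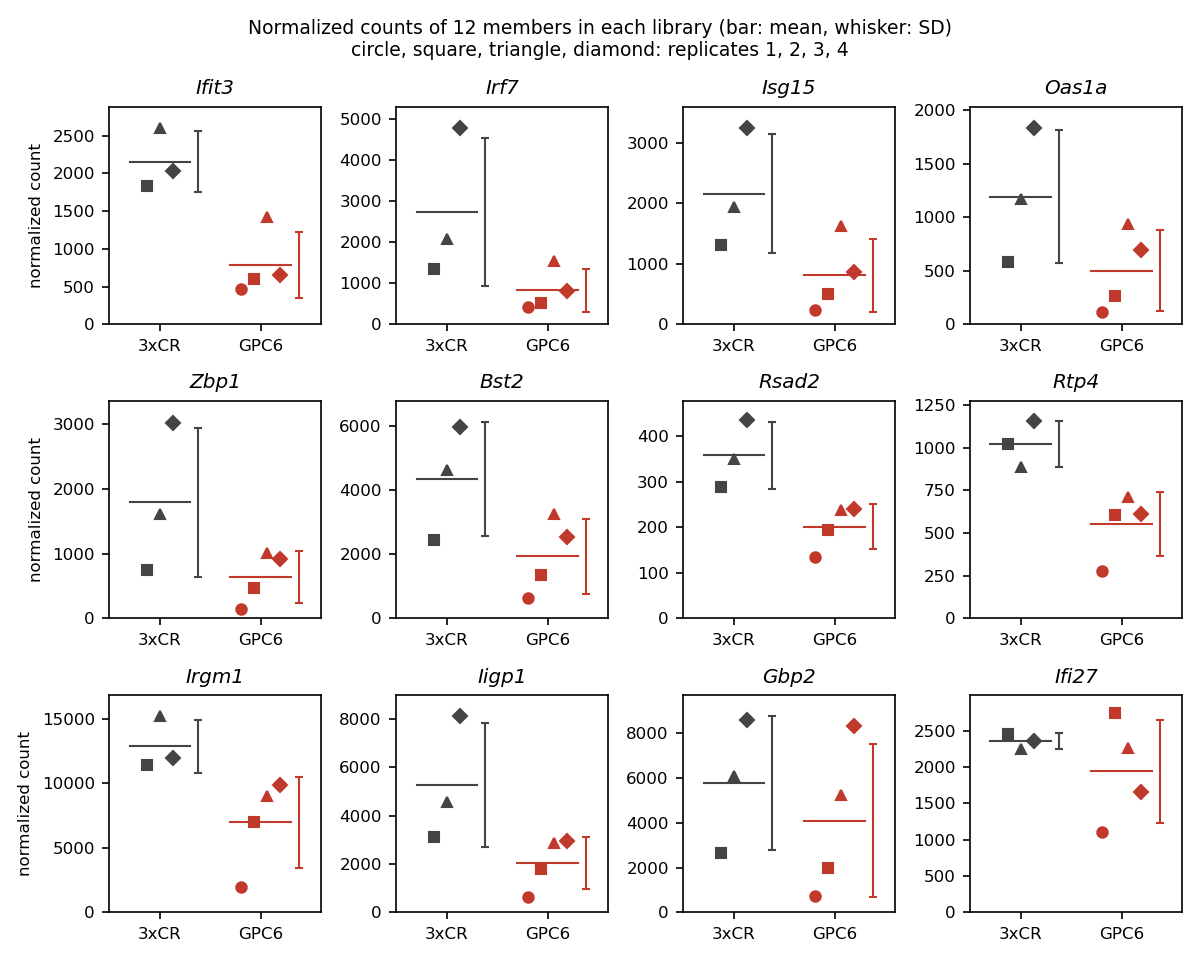
Normalized counts of 12 members in each library, on linear axes from 0, with the replicate shown by the symbol, the mean as a bar and the SD as a whisker (n = 3 for 3xCR and 4 for GPC6). In Ifit3 the GPC6 tumors reach at most 1429 normalized counts and the 3xCR tumors start at 1831.

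A further 8 members with other roles gave a median log2 fold change of -0.85, and Rtp4 alone among them separated the groups. Rtp4, a chaperone of membrane receptors that also restrains interferon responses, had 1021, 887 and 1157 normalized counts in 3xCR and 278, 608, 713 and 609 in GPC6 tumors. GPC6 replicate 1 was far below the other GPC6 tumors, and the log2 fold change was -0.96 (SE 0.34, unadjusted p = 0.0224). Ifi35, a regulator that binds other interferon-induced proteins, had 758, 1039 and 1550 normalized counts in 3xCR and 185, 550, 617 and 819 in GPC6 tumors, where only GPC6 replicate 4 overlapped (log2 fold change -1.16, SE 0.51, unadjusted p = 0.0533, and -0.71 without GPC6 replicate 1). Ifi44 ranged from 263 to 648 normalized counts in 3xCR and from 57.2 to 426 in GPC6 tumors. Xaf1, which counters an inhibitor of apoptosis, ranged from 584 to 1217 normalized counts and from 281 to 661.

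Parp9 and Dtx3l, which encode the 2 parts of an ADP-ribosylation and ubiquitin ligase complex, each had a lower mean in GPC6 tumors. Parp9 had 986, 1229 and 1369 normalized counts in 3xCR and 289, 760, 728 and 1127 in GPC6 tumors, while Dtx3l had 633, 799 and 832 and then 179, 508, 507 and 761. In both, GPC6 replicate 4 alone reached the 3xCR range. Parp9 and Dtx3l lie head to head on opposite strands and share 458 exonic bases, and whether the counting used strand is not given in the sources used here. Parp14, an ADP-ribosyltransferase, had 1282 ± 229 normalized counts in 3xCR (SD, n = 3) and 891 ± 386 in GPC6 (SD, n = 4). Ifi27, a small membrane protein, showed the smallest fold change of the list, with 2458, 2240 and 2352 normalized counts in 3xCR and 1107, 2738, 2256 and 1658 in GPC6 tumors. Its highest value lay in GPC6 replicate 2 (log2 fold change -0.36, SE 0.32, unadjusted p = 0.294, and -0.11 or -0.55 when GPC6 replicate 1 or 2 was left out).

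The immunity-related GTPases, the guanylate-binding proteins and the immunoproteasome subunits, which respond strongly to type II interferon, included the most abundant member, Igtp. Per kilobase of exon the mean level over the 7 libraries was 6006 normalized counts for Igtp, 3295 for Bst2 and 1908 for Gbp2, against 14.4 for Oas3, 20.1 for Oas2 and 30.1 for Mx1, with a median of 245 over the members. In Irgm1, a GTPase that controls the other members of its family, the normalized counts were 11384, 15208 and 11982 in 3xCR and 1980, 7026, 9005 and 9838 in GPC6 tumors. The groups did not overlap, with a log2 fold change of -1.11 (SE 0.55, unadjusted p = 0.0815), or -0.58 without GPC6 replicate 1. Iigp1, an effector GTPase that attacks the vacuoles of parasites, had 3112, 4551 and 8107 normalized counts in 3xCR and 648, 1785, 2865 and 2939 in GPC6 tumors. It also separated the groups (log2 fold change -1.46, SE 0.58, unadjusted p = 0.0356). Igtp had 12050, 18949 and 13260 normalized counts in 3xCR and 2271, 8741, 13955 and 15780 in GPC6 tumors. Thus for Igtp, in contrast to Irgm1, GPC6 replicates 3 and 4 lay within the 3xCR range (log2 fold change -0.83, SE 0.66, unadjusted p = 0.241, and -0.22 without GPC6 replicate 1). Igtp shares 162 exonic bases with Irgm2 on the same strand, so that some reads may belong to either.

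Gbp2, a guanylate-binding protein that attacks membranes around pathogens, had 2629, 6074 and 8569 normalized counts in 3xCR and 751, 2002, 5256 and 8324 in GPC6 tumors. Its relative Gbp3 ranged from 3299 to 4809 normalized counts in 3xCR and from 458 to 3706 in GPC6 tumors. Psmb8 and Psmb9 are subunits of the immunoproteasome, which cuts peptides for presentation on MHC class I. Psmb8 had 8218 ± 2307 normalized counts in 3xCR (SD, n = 3) and 5018 ± 2909 in GPC6 (SD, n = 4), and Psmb9 had 3783 ± 1106 and 2158 ± 1134. In these 4 genes GPC6 replicate 1 was lowest, GPC6 replicate 4 lay within the 3xCR range, and unadjusted p ran from 0.122 to 0.329. Psmb9 shares 212 exonic bases with Tap1 on the opposite strand, which matters if the counting ignored strand. Without GPC6 replicate 1 the median log2 fold change of the 7 GTPase and proteasome members was -0.42 instead of -1.02, while that of the 11 effectors was -0.81 instead of -1.04. When GPC6 replicates 1 and 2 were both left out, Gbp2 and Igtp had a higher mean in GPC6 (log2 fold changes of 0.36 and 0.037).

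The role groups differed only in how they ranked GPC6 replicates 3 and 4. In all 5 role groups GPC6 replicate 1 was lowest and GPC6 replicate 2 next. In GPC6 replicates 1 to 4 the level of the effectors was -1.29, -0.78, 0.34 and -0.11, and that of the GTPase and proteasome members was -2.18, -0.38, 0.24 and 0.53. The effectors were highest in GPC6 replicate 3 and the GTPase and proteasome members in GPC6 replicate 4. The signalling members, at -1.27, -0.76, 0.45 and -0.31, followed the order of the effectors. GPC6 replicates 3 and 4 were nearly level for the sensors, at 0.19 and 0.15, and for the members with other roles, at 0.12 and 0.18. The 3xCR tumors kept 1 order in all 5 role groups, with replicate 2 lowest and replicate 4 highest. These levels describe single tumors, and the differences between role groups were not tested.

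The fold changes of members with and without ISRE letters overlapped. The 15 members with ISRE letters had a median log2 fold change of -0.86, from -1.65 to -0.64, and the 11 with a window but no such letters had a median of -0.84, from -1.72 to -0.53. Irf7, with the largest difference, and Ifit2 and Irf9, whose groups did not overlap, held no ISRE letters in this window.

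Interferon transcripts themselves were scarce. Of 20 interferon genes listed, 3 were in the table and only Ifng, the type II interferon, had enough counts to be tested. Ifng had 12.6, 34.4 and 40.1 normalized counts in 3xCR and 6.18, 8.89, 35.5 and 46.3 in GPC6 tumors, on 4 to 45 reads per library. GPC6 replicates 1 and 2 were low for Ifng as they were for the members, and the groups overlapped (log2 fold change -0.53, SE 0.82, unadjusted p = 0.537, and -0.071 without GPC6 replicate 1). Ifnb1 had at most 2 reads and Ifnz at most 1 in a library, and the limit that 0 reads allow (3 counts) is 1.64 to 4.64 normalized counts by library, so that no difference in these was detectable at this depth.

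Lists of receptors, of kinases and transcription factors, of sensing and adaptor genes and of negative regulators had medians below 0. These medians were nearer to 0 than the members' median of -0.95, though some single genes lay below that value. All 5 tested interferon receptor genes had a lower mean in GPC6 tumors, with a median log2 fold change of -0.50. They ran from -0.84 for Il10rb to -0.26 for Ifnar1, a chain of the type I receptor and the most abundant of the 5. With limma 0 of 5 had an unadjusted p under 0.05, whereas edgeR and DESeq2 each gave 1, Il10rb, and the groups did not overlap for Ifngr1, a chain of the type II receptor. Of the 9 kinases and transcription factors 8 were lower, with a median of -0.50, from -0.96 for Irf8 to 0.14 for Jak1. All 12 further sensing and adaptor genes were lower, with a median of -0.55, from -1.15 for Ifi204 to -0.066 for Tbk1 and at -0.59 for the most abundant, Unc93b1, which carries Toll-like receptors to endosomes, and the groups did not overlap for Ticam1 and Tlr3. Of 11 negative regulators 9 were lower, with a median of -0.58, from -1.19 for Socs1, which inhibits the kinases, to 0.40 for Adar, which edits double-stranded RNA, and at -0.70 for the most abundant, Samhd1. In the last 3 lists 0 genes had an unadjusted p under 0.05 by limma, edgeR or DESeq2, and 0 genes of these 4 lists had an adjusted p under 0.05 by any of these tools. Over all genes tested 3.52% did not overlap and were lower. The shares lower at an unadjusted p under 0.05 were 1.92% by limma, 2.95% by edgeR and 3.66% by DESeq2. Ifngr1, Ticam1 and Tlr3 were named after their values were seen.

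Markers of immune cells had lower means in GPC6 tumors, but they did not follow the member level in every tumor. The level of 10 microglia markers, computed as for the members, was 0.36 to 0.56 in 3xCR and -0.80 to 0.15 in GPC6 tumors without overlap, with summed normalized counts of 12642 to 16534 and 8238 to 11467. Of these, 9 of 10 had a lower mean in GPC6 tumors, with a median log2 fold change of -0.54. By limma 3 were lower at an unadjusted p under 0.05, Tmem119 and Aif1 among them, and edgeR and DESeq2 also gave 3 each. Fcrls was at 0 in GPC6 replicate 1. The 9 monocyte and macrophage markers were all lower in the mean, with a median log2 fold change of -1.10. Their levels were -0.71 to 1.90 and -2.08 to 0.75, with sums of 3373 to 35113 and 672 to 11486 normalized counts. Limma and edgeR gave 0 of them as lower at an unadjusted p under 0.05, and DESeq2 gave 2. The 10 T and NK cell markers were also all lower in the mean, with a median log2 fold change of -1.19. Their levels were -0.16 to 1.89 and -1.54 to 0.089, with sums of 601 to 2142 and 363 to 591. By limma 1 marker, Lck, was lower at an unadjusted p under 0.05, whereas edgeR and DESeq2 each gave 4. The shares of all genes tested were 1.92% by limma, 2.95% by edgeR and 3.66% by DESeq2. No marker of these immune lists had an adjusted p under 0.05 by any of these tools. The monocyte and macrophage median and the T and NK cell median were both below the members' median of -0.95. Gzmb was at 0 in GPC6 replicate 1. 3xCR replicate 4, the library with the highest member level, was highest in the monocyte and macrophage markers and in the T and NK cell markers, and GPC6 replicate 1 was lowest in both. Between the other GPC6 tumors the order differed, since the monocyte and macrophage level was 0.55 in GPC6 replicate 2 and -0.83 in GPC6 replicate 3, where the member levels were -0.55 and 0.26. In the other lists, all 8 neuron markers had a higher mean in GPC6 tumors (median log2 fold change 1.65), as did 6 of 8 endothelial markers (0.40) and 4 of 7 astrocyte markers (0.052). The mean was lower for all 7 oligodendrocyte markers (-0.68), all 6 choroid plexus markers (-1.43) and all 7 proliferation markers (-0.58), and without GPC6 replicate 1 the medians of the neuron and proliferation markers were 0.97 and 0.29. The part of any of these cells in the members' values was not tested.

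**Figure D5:**
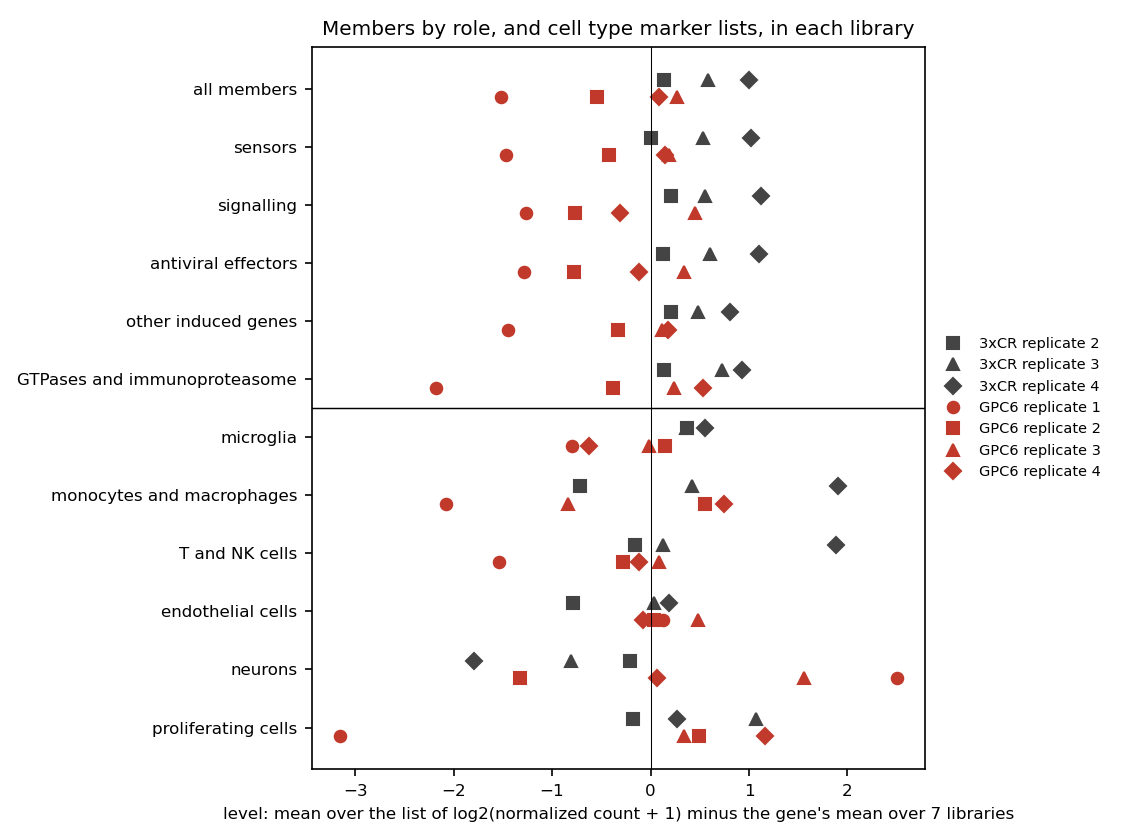
Level of the members by role and of cell type marker lists in each library, as the mean over the list of log2(normalized count + 1) centred on the average of each gene. GPC6 replicate 1 lies lowest in all 5 role groups, from -2.18 to -1.27, and highest for neurons at 2.51.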

How the data were processed

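Bulk RNA-Seq of 7 endpoint tumors was used, 3 of the 3xCR group (replicates 2 to 4) and 4 of the GPC6 group (replicates 1 to 4), with groups taken from the sample labels. Per the labels and the study's methods, the authors made libraries with a stranded mRNA kit, aligned reads to mm10 with STAR 2.5.0a, counted them per gene and normalized with DESeq2 1.20.0. The deposited table thus holds a linear signal for each gene and library, namely read counts scaled by DESeq2 size factors and not corrected for gene length. How the counting treated strand and reads that match several genes is not given in the sources used here. No other columns of per-sample values were present.

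Of 19282 entries, 25 bore names turned into dates and were left out (0.254% to 0.361% of a library's reads), and 96.0% of the other symbols matched GENCODE M21. Whole reads were recovered from the step of each library (100% of values within 0.01 of a whole read), which gave 7197692 to 18879762 reads on genes. A count of 0, read as up to 3 counts, allows 1.64 to 4.64 normalized counts, and this covers counting error only.

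GPC6 was compared with 3xCR on log2(normalized count + 1) by limma 3.58.1 (R 4.3.3), two-sided, with a variance trend and Benjamini-Hochberg adjustment over the 14782 genes with a mean of at least 10. Fold changes on this scale are understated for low genes. Alternatives were edgeR 4.0.16 (quasi-likelihood) and DESeq2 1.42.0 on the recovered reads, pseudocounts of 0.5 and 5, no filter or a minimum mean of 50, equal totals or upper quartiles, no variance trend, library weights, a replicate block and leaving out each library. Leaving out GPC6 replicates 1 and 2 together was added after seeing the data. Single values per library were compared by two-sided exact permutation tests.

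All 37 members are named. From each pathway list the most abundant gene and the genes at both ends of the fold changes were taken, with defining markers of cell type lists, Gpc6, and the 10 genes most alike the members in pattern. Some genes that this rule would name are not reported here. Ifit3b, Irgm2, Ifngr1, Ticam1 and Tlr3 were named after their values were seen. Members and lists were chosen with earlier results of these data known, so their direction is not independent evidence. Promoter windows and motif letters were read from a RefSeq table of GRCm38.p6. Each library came from a separate brain, and p-values measure the spread between these tumors.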

Additional observations from a re-analysis of the deposited data

Results flagged for a closer look

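Among the 4 GPC6 tumors, 1 value stood far from the other 3 in 2 of the 43 quantities examined (the 37 members and 6 levels), judged by Dixon's criterion at 95%. Chance alone gives about 2.15 such values among 43. Ifit1 had 723 normalized counts in GPC6 replicate 3, against 388 to 429 in the other GPC6 tumors. Rtp4 had 278 normalized counts in GPC6 replicate 1, against 608 to 713 in the others.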

How the results depend on the processing

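Of the results for single members under all alternatives, 612 kept their direction and their side of an unadjusted p of 0.05, 39 passed it anew, 49 no longer passed it and 3 changed direction. The 3 were Gbp2 (0.36) and Igtp (0.037) without GPC6 replicates 1 and 2, and Oasl2 (0.085) with library weights. These weights were 8.71 for 3xCR replicate 3 and 4.47 for GPC6 replicate 3, and 0.301 to 0.849 for the other libraries. Genes with an adjusted p under 0.05 numbered 0 with limma, 10 with DESeq2 and 1962 with library weights, and members numbered 0, 0 and 3. The 11 members lower at an unadjusted p under 0.05 became 1 to 19 when 1 library was left out, with the fewest without 3xCR replicate 4, and 2 without GPC6 replicates 1 and 2. The median log2 fold change of the members lay between -1.15 and -0.66 with 1 library left out, and was -0.90 with equal totals and -0.99 with equal upper quartiles. Without GPC6 replicates 1 and 2 the value of the interferon ligands, which is Ifng alone, was 0.62 instead of -0.53 and the median of the negative regulators was -0.00048 instead of -0.58. The cause of these shifts was not tested.

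Between samples with the same replicate number the deviations from the group means had r of -0.19, 0.12 and 0.30 for replicates 2, 3 and 4. What the numbers stand for is not given in the sources used here. Correlations from so few libraries cannot show whether the tumors were paired, and the main fit used no pairing. With the replicate block 12 members were lower at an unadjusted p under 0.05, against 352 of all 14782 genes, with a median of -0.66 and a smallest adjusted p of 0.809. As no 3xCR library shares the number of GPC6 replicate 1, the block takes up that library alone. The fold changes of this fit therefore equal those without GPC6 replicate 1 and are not a separate check.

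With 3 and 4 tumors, of which 1 or 2 per group decide much of the spread, the number of members below a threshold is imprecise. The lowest member values rest on few reads, 12 in the smallest case. Neither the makeup of the tissue, nor the sex of the animals, nor the time of collection could be entered as a term.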

Other observations

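Outside the 37 members, the 10 genes whose log2 values were most alike the mean member level over the 7 libraries were Rps12, Uba7, Cenpu, Tapbpl, Parp12, Ifitm3, Dnase1l3, Plxna4os1, Tor3a and Zc3hav1, with Pearson's r from 0.984 to 0.991. They were picked from all genes tested for this likeness, the values share 7 libraries and their size factors, and r is a description. Ifitm3, a membrane protein that blocks virus entry, had 4172, 5923 and 6774 normalized counts in 3xCR and 932, 2036, 5197 and 4084 in GPC6 tumors. Dnase1l3, a secreted nuclease, had 144, 323 and 423 normalized counts in 3xCR and 10.8, 54.3, 108 and 134 in GPC6 tumors. Its groups did not overlap, and its log2 fold change was -2.28 (limma, unadjusted p = 0.0276). Rps12, a ribosomal protein gene, had 8100, 11700 and 14603 normalized counts in 3xCR and 3261, 6434, 8581 and 8571 in GPC6 tumors. In Rps12, as in the members, GPC6 replicate 1 was lowest and 3xCR replicate 4 highest.

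The near copy of Oas1a, Oas1g, had 250, 424 and 815 normalized counts in 3xCR and 63.4, 90.9, 410 and 255 in GPC6 tumors. GPC6 replicates 1 and 2 were below every 3xCR tumor for this gene, and the groups overlapped.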
